A study of Drosophila melanogaster with 9 samples.

Results

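Adult olfactory projection neurons (PN) were set against the remaining central brain cells, gene by gene. A gene was a member when its adult FPKM averaged 1 or more across Kenyon cells (KC), PN and double negative cells (DN), which kept 8515 of 16854 genes. FPKM, the deposited unit, is fragments for each kilobase of a transcript relative to all mapped fragments. The difference for a gene was taken as log2(FPKM + 1) in PN minus the same in DN, a scale that understates the change of low genes. Folds called here are on that scale, so 4-fold is a difference of 2 and 2-fold a difference of 1.

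All cells came from flies of 1 genotype, GH146:Gal4>UAS:tomato/CyO together with MB247:LexA>LexAop:GFP/TM2, so CyO and TM2 were carried in every group. PN were the tomato-positive cells, KC the GFP-positive cells, and DN the cells negative for both, sorted from adult brains of pooled males and females after the optic lobes had been taken off. GH146 drives expression in a large subset of projection neurons and is also known for the GABA-releasing APL neuron of the mushroom body, so the PN group is what this driver labels. DN is a mixture: the design text names it as neurons, but a sort on the absence of a label would also keep other cells. The age of the adults is not given in the sources used here. Each group had 2 libraries per the labels, and the authors deposited 1 averaged column per group, so no value below has a standard deviation and no test of a gene was possible. Adult libraries were read for 50 bases, per the labels, and the depth each reached is unknown. Where a difference is given for a whole population, fewer cells of a type and less RNA per cell cannot be told apart.

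Projection neurons carry odour signals from the glomeruli of the antennal lobe to the mushroom body and the lateral horn. Most of them release acetylcholine, and a ventral group releases GABA. Their dendrites receive acetylcholine from olfactory receptor neurons and GABA and glutamate from local neurons, so they are known as large, strongly driven relay cells. They arise from several lineages, each marked by its own transcription factors.

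Of the 8515 genes, 377 were at least 4-fold higher in PN (4.43%) and 257 at least 4-fold lower (3.02%). At the 2-fold line, 1435 genes (16.9%) were higher and 808 (9.49%) lower, and these shares are the background for the gene lists below. The genes nearest the 4-fold line were CG14946 just inside, at 125 FPKM in PN against 30.5 in DN, and Zir just outside, at 28.3 and 6.32. On the lower side Adgf-D was just inside, at 4.27 and 20.1 FPKM, and CG4199 just outside, at 25.7 and 106. Of the 377 genes, 283 were protein coding (75.07%) and 59 were listed at 0 in DN. For the 257 lower genes these counts were 181 coding (70.43%) and 80 listed at 0 in PN. Among all 8515 genes 90.65% were protein coding, 85 were listed at 0 in DN and 118 in PN. Both sets thus held a larger share of noncoding genes and of values at 0 than all genes. For values at 0 this follows in part from picking the sets by the size of the difference. No fold is given against a value listed at 0, since such a value may be a failed estimate. The plot of PN against DN levels shows both sets.

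**Figure D1:**
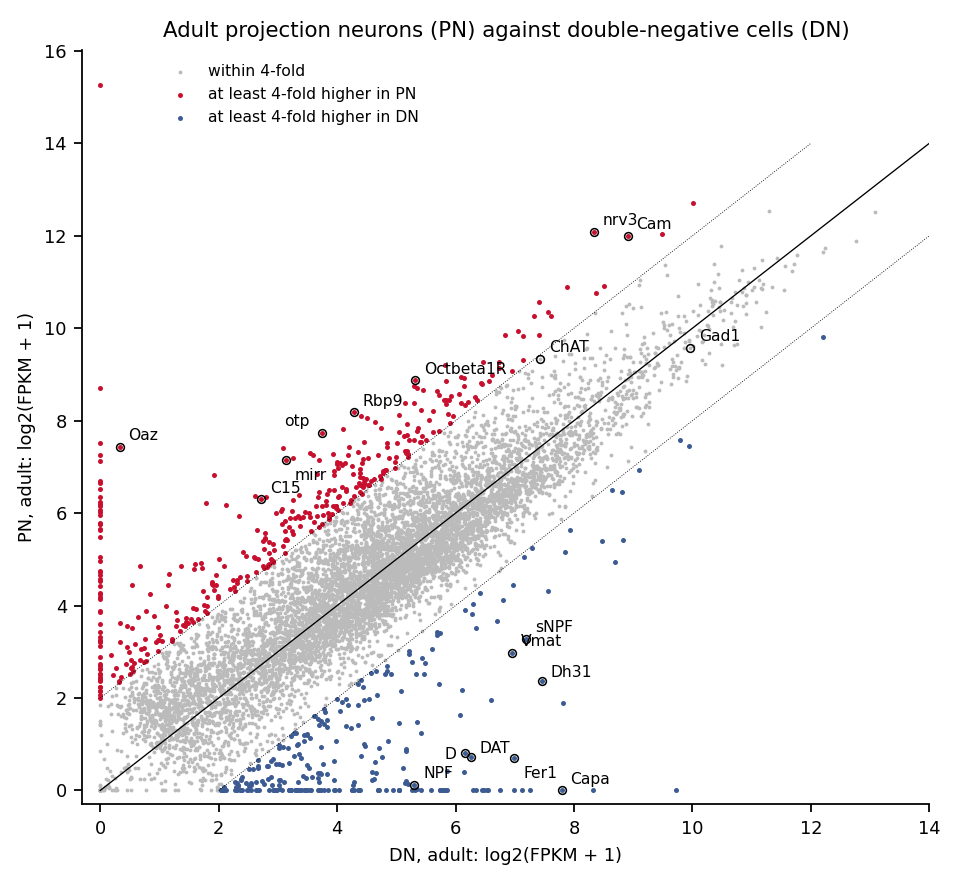
Level of each of 8515 genes in adult DN (x axis) and adult PN (y axis), both as log2(FPKM + 1), each point 1 gene and each value the authors' mean. Dotted lines mark a 4-fold difference, with 377 genes above (red) and 257 below (blue), and Oaz stands far from the diagonal at 172 FPKM in PN against 0.255 in DN.

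Transcript length moved with the difference over all genes. When genes were cut into 5 equal groups by exon length, the group with the longest exons (4135 bases or more) had 196 genes at least 4-fold higher in PN against 15 lower, and its median difference was 0.77. In the group with the shortest exons (986 bases or fewer) the median was -0.21, with 100 higher and 107 lower. For most gene lists below, the median is therefore also given after the median of each gene's own length group was subtracted, called the length-centred median. Over all genes with an exon length, 1192 of 8482 were then 2-fold higher and 740 lower, and length-centred counts of a list are to be read beside these. A count or median over kept genes leaves out the genes near 0 in every group. Which part length plays in any single difference was not tested.

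Transcription factors of the projection neurons came first, on a list chosen with earlier results of these data known. Oaz (now L; chromosome 2R, 14435899 to 14465881, dm6), a zinc finger gene known from projection neurons, stood at 172 FPKM in PN, 0.255 in DN and 0 in KC. Its difference of 7.10 was the largest of the protein-coding genes listed above 0 in both columns and with at least 10 FPKM in 1 of them. C15 (chromosome 3R, 21499986 to 21512814), a homeobox gene of a projection neuron lineage, was at 77.8 FPKM in PN, 5.60 in DN and 0.128 in KC. For unpg, another homeobox gene, the values were 28.6, 2.03 and 0.0501 FPKM. The POU factor acj6, which marks the anterodorsal lineage, was at 43.2 FPKM in PN against 5.87 in DN, a difference of 2.69. The zinc finger factor kn (32.0 against 9.03 FPKM) and the homeobox gene ct (4.20 against 1.25) were also more than 2-fold higher.

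The other genes on the list did not share this pattern. The POU factor vvl, which marks the lateral lineage, was at 5.74 FPKM in PN against 5.24 in DN. The LIM-homeobox gene Lim1, known from the ventral lineage, was at 7.80 FPKM in PN against 27.9 in DN, a difference of -1.72. lov stood at 10.5 against 14.4 FPKM, and ems was under the filter, at 0 in PN and 0.685 in DN. Of the 10 genes on this list 9 were kept, with 6 at least 2-fold higher and 1 lower. Their median was 1.72. Length-centred, it was 0.95, with 4 higher and 2 lower. KC were low for the whole list, with a summed level of 2.26 FPKM against 381 in PN and 72.3 in DN.

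Other homeobox genes that are not on that list also stood more than 4-fold higher in PN. The Iroquois gene mirr (chromosome 3L, 12693639 to 12710249) stood at 141 FPKM in PN, 7.79 in DN and 0.133 in KC, a difference of 4.02. The gene otp (chromosome 2R, 20883625 to 20903414), the fly orthopedia, was at 212, 12.4 and 0.176 FPKM, a difference of 3.99. For hth, which encodes a partner of Hox proteins, the level was 264 FPKM in PN against 21.8 in DN. The Iroquois gene caup (20.9 against 2.86 FPKM) followed. Each of the 4 was highest in PN among the 3 adult columns. The loci of otp and hth, like those of 4721 kept genes in all, are shared with other genes in the table, so their reads may be split.

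Among the kept homeobox genes a larger number stood higher in DN, each at a modest level. Of 80 on the list 46 were kept, 11 at least 2-fold higher in PN and 19 lower, with a median of -0.08 and a length-centred median of -0.73. The median was -1.87 without the genes that share a locus, and turned to 0.39 with a filter at a mean of 5 FPKM. With that filter 10 were higher and 9 lower, so the larger count in DN depended on the filter. It remained with a pseudocount of 5, at 10 higher and 17 lower, and without shared loci, at 7 and 18. The filter is a mean over the 3 adult groups, so a gene high in DN alone passes it less readily. CG4328 was at 0.183 FPKM in PN against 23.6 in DN, and CG32105 (now Lmx1a), a LIM-homeobox gene, at 0.176 and 23.2. Rx was listed at 0 in PN and at 14.7 FPKM in DN. The highest DN level of any homeobox gene was 78.5 FPKM against 264 in PN. Of all 16854 genes, 8526 were at 1 FPKM or more in PN and 8331 in DN. Of the 80 homeobox genes, 48 were under 1 FPKM in PN against 24 in DN. The PN group thus had few homeobox genes at high levels, and DN many at lower levels.

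Among 84 other regulators of neuron identity, mostly transcription factors, 64 were kept, with 24 higher and 17 lower in PN by 2-fold. Length-centred, the balance turned to 9 higher and 19 lower, and the median of 0.37 to -0.11. The zinc finger gene mamo was at 81.5 FPKM in PN against 5.10 in DN (3.76). Mef2, a MADS-box factor also known from Kenyon cells, was at 112 FPKM in PN, 14.4 in DN and 125 in KC. Pdp1, a leucine zipper factor of the circadian clock, stood at 80.5 against 11.8 FPKM, and pros, a homeodomain-like factor of neuron differentiation, at 153 against 48.9.

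The factors furthest below DN included basic helix-loop-helix and Sox genes. Fer1 (chromosome 3R, 7136206 to 7141972), a basic helix-loop-helix gene, was at 0.620 FPKM in PN against 126 in DN, and its difference of -6.30 was the most negative among the coding genes above 0 in both columns. D, the Sox gene Dichaete, stood at 0.765 FPKM in PN against 70.3 in DN (-5.34). TfAP-2 was at 0.411 against 33.5 FPKM, Fer2 at 0.806 against 34.7 and the forkhead gene fd59A at 0.297 against 24.2. KC levels of these 5 lay between 0.695 and 2.07 FPKM, so DN was the highest of the 3 adult groups.

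**Figure D2:**
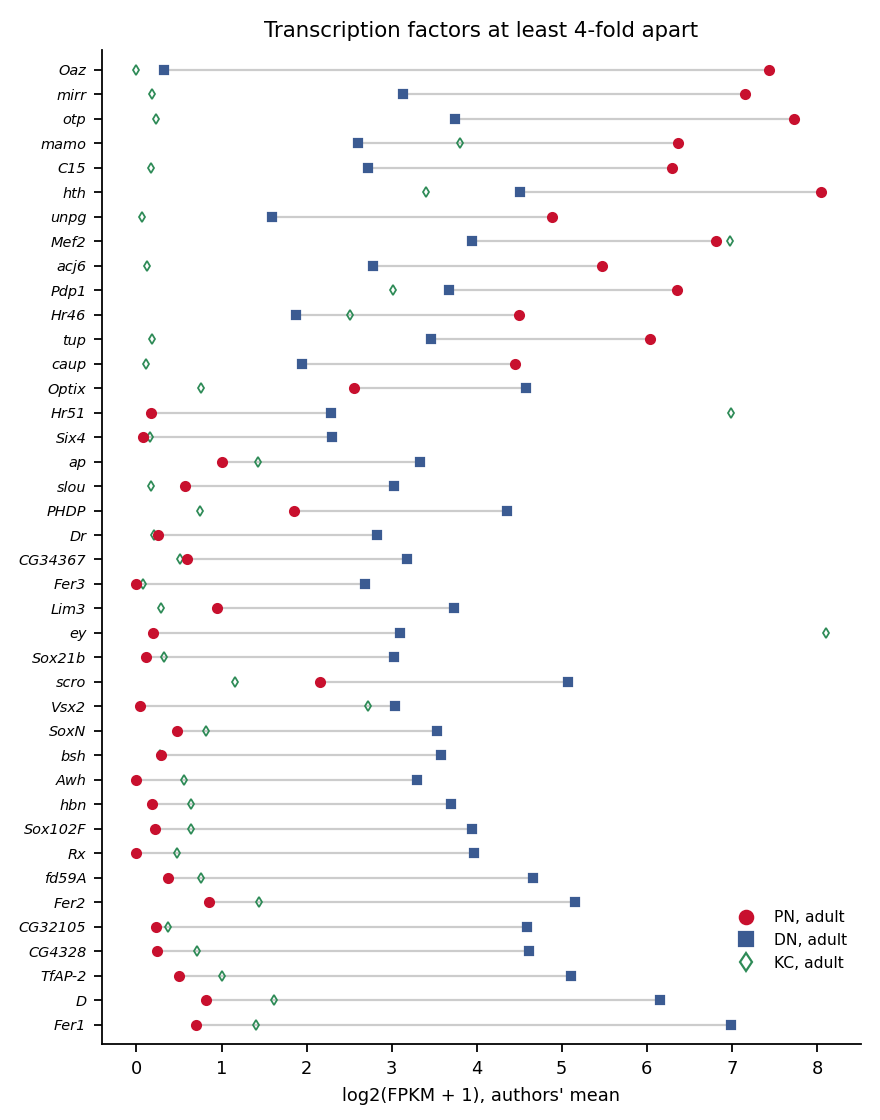
Levels of the 40 transcription factors on the lists that were at least 4-fold apart between adult PN (circles) and DN (squares), as log2(FPKM + 1), with adult KC as open diamonds; each symbol is the authors' mean. In 13 the PN symbol lies to the right, led by Oaz, and in 27 the DN symbol does, with Fer1 at the bottom.

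Genes of transmitter use were read next. All 4 genes of acetylcholine handling were at least 2-fold higher in PN, with a median of 2.48 (2.06 length-centred). Ace, the esterase that breaks acetylcholine down, was at 432 FPKM in PN against 38.5 in DN. The vesicular transporter VAChT stood at 135, 15.5 and 40.4 FPKM and the synthetic enzyme ChAT at 648, 171 and 89.8. The choline transporter gene CG7708 (now ChT) was at 671 FPKM in PN against 205 in DN.

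GABA genes were high in both groups. Gad1, the enzyme that makes GABA, was at 762 FPKM in PN against 994 in DN, and VGAT, its vesicular transporter, at 75.9 and 90.0. Both differences, -0.38 and -0.24, were within 2-fold. In KC, Gad1 was at 25.1 FPKM. VGlut, the vesicular glutamate transporter, stood lower in PN, at 20.9 against 124 FPKM.

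Monoamine genes were among the lowest in PN. Of 9 on the list 8 were kept and 6 were at least 4-fold lower, with a median of -3.64 (-3.59 length-centred). The dopamine transporter DAT (chromosome 2R, 16558567 to 16565238) was at 0.652 FPKM in PN, 75.4 in DN and 92.8 in KC. Trh (now Trhn), the enzyme of serotonin synthesis in neurons, was at 0.155 FPKM in PN against 34.9 in DN. Vmat, the vesicular monoamine transporter, stood at 6.86 against 123 FPKM, Tdc2, which makes tyramine, at 0.881 against 25.1, and ple, the tyrosine hydroxylase, at 0.274 against 13.3. SerT, the serotonin transporter, was at 0.172 against 7.24 FPKM. The 2 kept genes that did not follow were Tbh, which makes octopamine, at 27.1 FPKM in PN against 27.6 in DN, and Ddc, a decarboxylase, at 613 and 361. Hdc, which makes histamine, was under the filter at 0.185 and 1.40 FPKM.

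Peptide precursor genes stood mostly lower in PN. Of 46 listed 31 were kept, 24 at least 2-fold lower in PN and 1 higher, with a median of -3.60 and a length-centred median of -3.22. Over all 46, with the genes near 0 in every group included, the median was -1.53, with 26 lower and 1 higher. Their summed level was 664 FPKM in PN against 2899 in DN. Capa, a precursor of diuretic peptides, and Mip, the myoinhibiting peptide gene, were listed at 0 in PN and stood at 220 and 54.2 FPKM in DN. Next came FMRFa (0.0239 against 39.9 FPKM), NPF, a feeding-related peptide (0.0929 against 38.4), and Dh31, a diuretic hormone (4.17 against 175). SIFa stood at 0.109 FPKM in PN against 35.6 in DN, AstC, an allatostatin, at 0.125 and 34.4, and Tk, a tachykinin, at 2.87 and 95.5.

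Some precursors were also present in PN. CCHa1 was the kept member that stood 2-fold higher, at 157 FPKM in PN, 34.7 in DN and 1.79 in KC. CG8216 (now spab) was at 173 FPKM in PN against 987 in DN, and Nplp1 at 41.1 and 355. Proc, at 45.4 and 51.4 FPKM, and Dh44, at 72.2 and 49.0, were within 2-fold. sNPF, a peptide abundant in Kenyon cells, was at 8.68 FPKM in PN, 145 in DN and 1343 in KC.

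**Figure D3:**
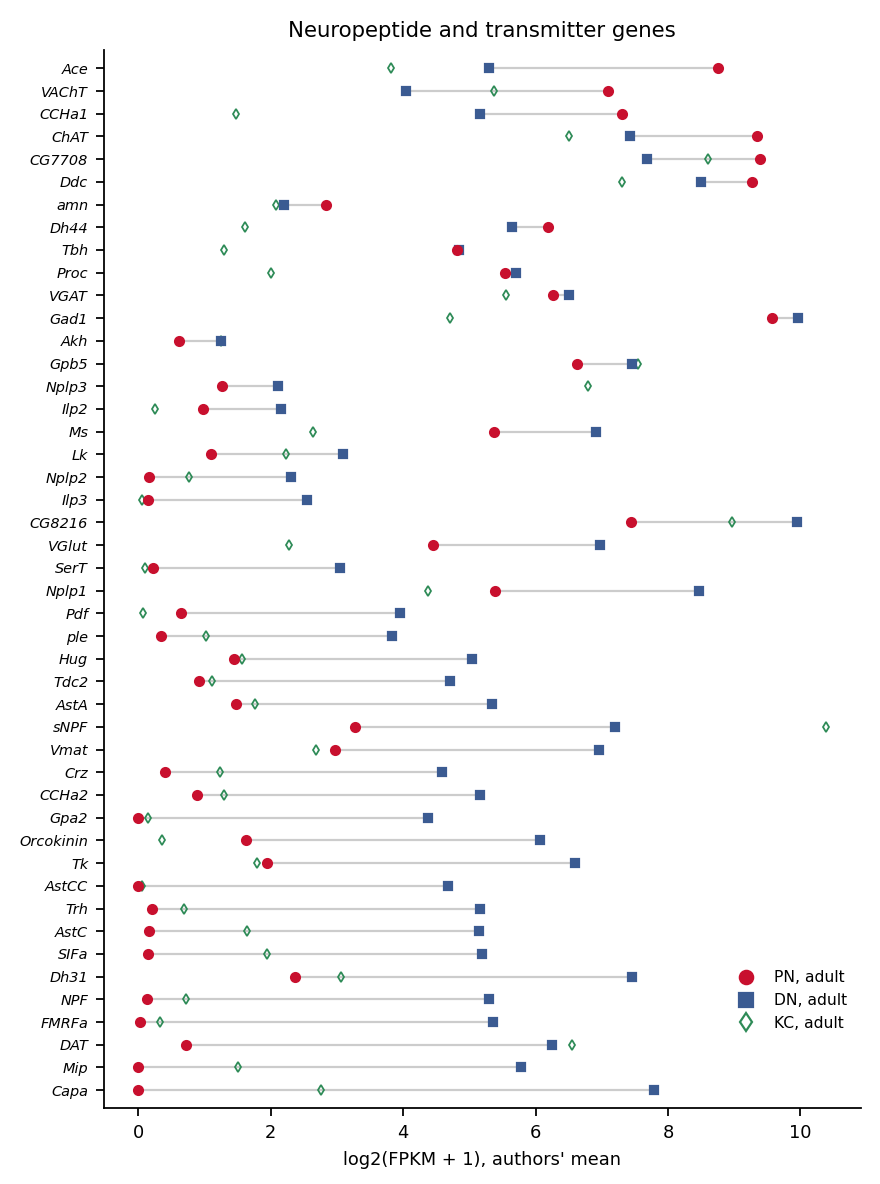
Adult levels of the 46 kept genes of neuropeptides, monoamines, acetylcholine, GABA and glutamate transport, as log2(FPKM + 1), for PN (circles), DN (squares) and KC (open diamonds), each the authors' mean. Acetylcholine genes lie near the top with PN to the right, from Ace at 432 against 38.5 FPKM, and Capa at the bottom is listed at 0 in PN.

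Genes of peptide processing and granule release were mixed. Phm and Pal2, which amidate peptide ends, stood at 241 and 592 FPKM in PN and at 609 and 1447 in DN. The synaptotagmin gene Sytalpha was at 27.9 against 58.0 FPKM. By contrast the granule protein gene IA-2 was at 1471 FPKM in PN against 489 in DN, the priming factor Cadps at 147 and 35.8, Syt7 at 365 and 78.9, and the furin gene Fur1 at 42.6 and 5.86. The convertase amon, at 143 and 134 FPKM, and its chaperone 7B2, at 1805 and 2998, were within 2-fold. Of 12 kept genes 4 were higher and 3 lower, with a median of -0.25. Length-centred, the balance turned to 3 higher and 4 lower, and the median was -0.34.

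Receptors of the transmitters that reach projection neurons were then compared. Nicotinic acetylcholine receptor subunits were higher in PN in 7 of 9 kept members and lower in none, with a median of 1.66 (1.42 length-centred). nAChRalpha7 was at 152 FPKM in PN against 24.8 in DN, nAChRalpha3 at 47.7 and 7.71, nAChRalpha4 at 82.0 and 15.3, and nAChRalpha5 at 61.3 and 12.6. The subunit with the highest level, nAChRbeta1, was at 936 against 295 FPKM. nAChRbeta2, at 215 and 239 FPKM, and nAChRalpha2, at 121 and 113, were level. The subunits therefore did not stand in the same proportions in the 2 groups.

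GABA receptor genes also differed one by one. Rdl, the chloride channel, was at 337 FPKM in PN against 73.1 in DN, and GABA-B-R1, a metabotropic subunit, at 93.1 and 15.9. Its partner GABA-B-R2 was level, at 141 and 146 FPKM, as was Lcch3, at 119 and 129. CG8916 was lower in PN, at 2.97 against 16.7 FPKM, and GABA-B-R3 (12.8 and 16.0) and Grd (1.71 and 1.96) were within 2-fold. The list median over 7 genes was -0.11.

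Of 8 kept glutamate receptor genes 4 were higher in PN and none lower, with a median of 0.67. Length-centred, 2 were higher and the median was 0.15. The metabotropic receptor mGluR was at 158 FPKM in PN against 19.4 in DN, the chloride channel GluClalpha at 381 and 102, and the NMDA receptor genes Nmdar1 at 93.2 and 37.4 and Nmdar2 at 70.1 and 29.2. The kainate and AMPA type genes CG3822 (24.4 and 25.6 FPKM), GluRIA (23.0 and 24.6) and GluRIB (7.17 and 6.56) were within 2-fold. The higher members were thus the inhibitory, metabotropic and NMDA types.

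Among 16 kept monoamine receptor genes 5 were higher in PN and 1 lower. The octopamine receptor Octbeta1R was at 466 FPKM in PN, 38.9 in DN and 241 in KC (3.55), and DopEcR, a receptor of dopamine and ecdysteroids, at 295, 47.9 and 49.3. The dopamine receptor Dop1R1 stood at 83.7 against 23.8 FPKM, the serotonin receptor 5-HT7 at 18.7 against 7.48 and Octbeta3R at 36.3 against 16.2. Oct-TyrR was lower, at 9.68 against 21.8 FPKM. Length-centred, the balance turned to 3 higher and 5 lower, and the median of 0.32 to -0.44.

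Among peptide receptors 10 of 34 kept genes were lower in PN and 3 higher (median -0.35, -0.43 length-centred). The lower count rested on genes of low level, since it was 3, beside 3 higher, with a filter at a mean of 5 FPKM and 4, beside 3 higher, with a pseudocount of 5. Lower members were Lgr1 (0.0627 against 4.69 FPKM), the tachykinin receptor TkR99D (1.12 against 9.86) and the receptor CCKLR-17D1 (2.23 against 12.9). The 3 higher genes were AstA-R1, an allatostatin receptor, at 55.1 against 11.3 FPKM, sNPF-R, the receptor of short neuropeptide F, at 76.3 against 18.5, and SPR at 27.5 against 8.64. In KC, sNPF-R was at 1.17 FPKM.

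Ion channel genes were read next. Among the 17 sodium, calcium and leak channel genes, all kept, 15 were at least 2-fold higher and none lower, with a median of 1.75. Length-centred, 8 of the 17 were higher and the median was 1.00. As background, these channels set how readily a neuron fires. The cation channel Ih, gated by hyperpolarization, was at 144 FPKM in PN against 21.9 in DN, and the T-type channel Ca-alpha1T at 59.2 and 13.6. The sodium channel partner Teh3 was at 320 and 70.1 FPKM. unc79, part of the leak channel complex, had the highest level of the list, at 489 FPKM in PN against 174 in DN. The exceptions within 2-fold were Teh4 (10.2 and 11.0 FPKM) and unc80 (51.3 and 27.2).

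Of 18 kept potassium channel genes 11 were higher and 2 lower, with a median of 1.45. Length-centred, 8 were higher and 1 lower, and the median was 0.69. The Shaker channel gene Sh was at 206 FPKM in PN against 35.3 in DN, its modulator qvr at 230 and 40.3, eag at 32.0 and 5.07, Shab at 88.2 and 16.6, and the calcium-gated channel slo at 73.8 and 17.6. The 2 lower genes were the inward rectifier Irk2 (5.39 against 16.4 FPKM) and the two-pore channel Task7 (97.4 against 201). Voltage-gated and calcium-gated types thus made up the higher members named.

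Vesicle release genes gave 23 of 29 higher in PN and none lower, 10 of them by 4-fold, with a median of 1.83 (1.15 length-centred). The fusion clamp cpx was at 1897 FPKM in PN against 234 in DN, and the SNARE genes nSyb at 2629 and 740 and Syx1A at 510 and 97.3. The neuronal calcium sensors Frq1 (67.1 against 7.39 FPKM) and Frq2 (58.1 against 9.39) and the endocytic dynamin shi (1941 against 545) followed. Snap25, also a SNARE gene, was at 640 and 391 FPKM, within 2-fold.

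The neuron-wide list, which shares members such as nSyb and Syx1A with the release list, had 13 of 14 genes higher and a median of 2.24 (1.55 length-centred). Its summed level was 10257 FPKM in PN, 1971 in DN and 1881 in KC. nrv3 (chromosome 2L, 21380000 to 21393319), a sodium pump subunit of neurons, was at 4335 FPKM in PN against 321 in DN. Rbp9, an RNA-binding protein of the ELAV family, was at 289 against 18.4 FPKM. Its relatives fne, at 299 and 41.7 FPKM, and elav, at 91.1 and 36.2, were higher by less. The KC sum was close to that of DN, so of the 3 sorted groups PN stood apart.

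**Figure D4:**
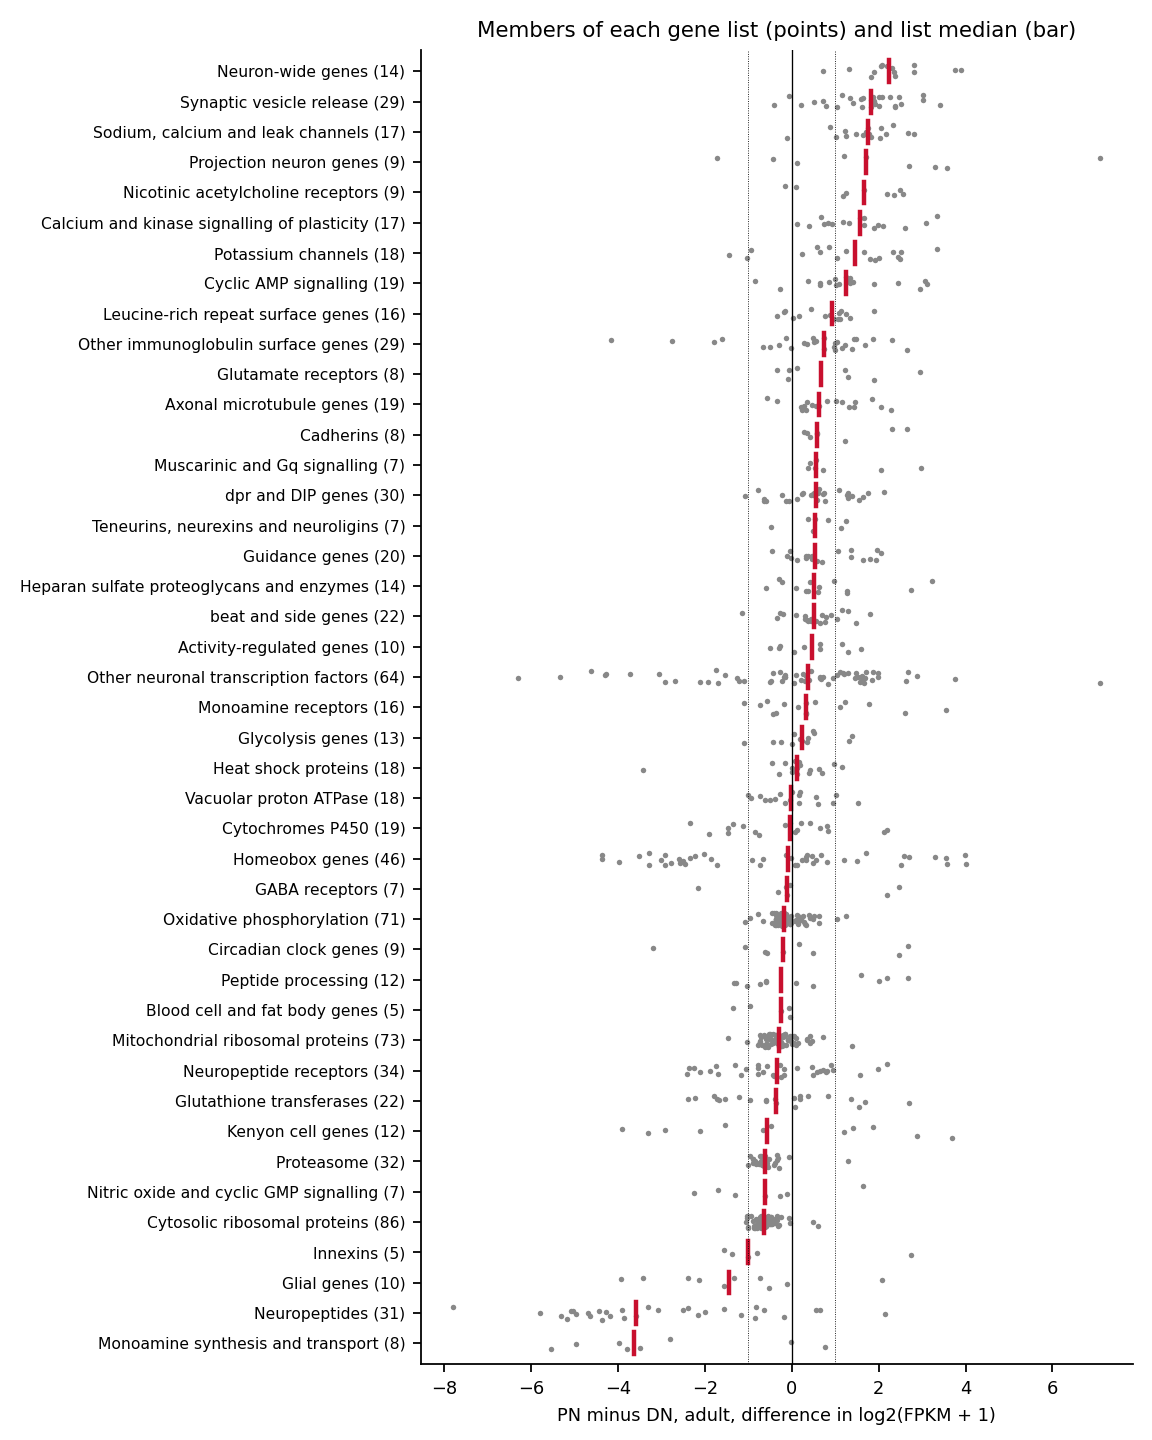
PN minus DN in the adult, as a difference in log2(FPKM + 1) (x axis), for the kept members of the 43 lists with at least 5 of them; points are genes, red bars list medians, dotted lines 2-fold, and the number kept is in brackets. Neuron-wide and release genes lie to the right with medians of 2.24 and 1.83, and neuropeptides and monoamine genes to the left with medians of -3.60 and -3.64.

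Intracellular signalling genes of plasticity were compared for their role in learning circuits. In cyclic AMP signalling 13 of 19 kept genes were higher in PN and none lower, with a median of 1.24. Length-centred, 6 were higher and 1 lower, and the median was 0.53. The kinase subunits Pka-C1 (278 against 32.1 FPKM) and Pka-R2 (124 against 15.1) stood high, while Pka-R1 was at 61.7 against 112. In KC these 3 genes were at 279, 198 and 379 FPKM. Nf1, a Ras regulator that acts on the pathway, was at 36.1 FPKM in PN against 5.78 in DN, and the cyclase rut at 30.7 and 10.8.

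Of 17 kept calcium and kinase genes 11 were higher and none lower, with a median of 1.56. Length-centred, 6 were higher and the median was 0.88. Cam, the calcium sensor calmodulin, stood at 4090 FPKM in PN, 479 in DN and 310 in KC. The kinase Pkc98E was at 347 against 56.0 FPKM, the calcium-binding protein Cbp53E at 1289 against 324, and the phosphatase subunit CanA-14F at 73.1 against 16.2. Its regulatory subunit CanB was at 1003 and 761 FPKM. rdgC, a phosphatase that calcium activates, was at 145 FPKM in PN against 8.54 in DN. In Gq signalling, the phospholipase norpA was at 131 against 16.0 FPKM and Galphaq at 22.2 against 4.55, the 2 higher genes of 7 kept, with a list median of 0.56 that turned to -0.21 when length-centred.

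Cell surface genes were examined because the study's title names cell surface molecules of this circuit. Of 152 listed 129 were kept, with 44 higher in PN by 2-fold, 6 lower, and a median of 0.58. Length-centred, the counts were 20 higher and 12 lower, and the median was 0.21. The heparan sulfate proteoglycan dally was at 171 FPKM in PN, 17.4 in DN and 2.17 in KC, and Sulf1, which trims sulfate from such proteoglycans, at 143, 20.7 and 1.19; both are on a separate list in which 4 of 14 kept genes were higher (2 length-centred) and none lower. Among guidance genes 8 of 20 were higher (4 length-centred) and none lower. Sema-1a, a semaphorin known from projection neuron dendrite targeting, was at 19.0 against 3.84 FPKM and its receptor PlexA at 23.2 against 5.21. The ligand Ephrin stood at 39.4 against 10.5 FPKM.

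The paired families of immunoglobulin proteins had medians near the 0.58 of all listed surface genes before length centring. Of 30 dpr and DIP genes, all kept, 9 were higher and 1 lower, with a median of 0.55. Length-centred, 4 were higher and 1 lower, and the median was 0.38. dpr9 was at 214 FPKM in PN against 48.4 in DN, dpr8 at 55.5 and 15.7, DIP-eta at 54.8 and 16.9, and dpr7 at 356 and 122, while dpr20 was lower at 35.2 and 75.4. Of 22 beat and side genes 5 were higher and 1 lower, the latter beat-IIa at 19.6 against 44.4 FPKM, with a median of 0.50. Length-centred, 3 were higher and 2 lower, and the median was 0.07.

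Other surface genes reached further apart. In the remaining immunoglobulin list 11 of 29 were higher and 4 lower. Length-centred, the balance turned to 4 higher and 7 lower, and the median of 0.74 to -0.03. Dscam4 was at 41.4 FPKM in PN against 5.72 in DN and nrm at 42.5 and 7.82. On the low side were Lac, at 0.0777 FPKM in PN, 18.3 in DN and 46.1 in KC, ImpL2, a secreted insulin-binding protein, at 0.0927, 6.43 and 0.465, hig, a synaptic cleft protein, at 138, 479 and 13.8, and bdl at 2.15, 8.60 and 3.15. Leucine-rich repeat genes had 7 of 16 higher and none lower, led by Con at 181 against 48.3 FPKM, and 3 higher and 1 lower length-centred. Among 8 kept cadherins Cals (350 against 54.8 FPKM), CadN (34.2 against 6.18) and kug (4.91 against 1.53) were higher.

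Markers of other cell types were read next. Of 16 glial genes 10 were kept, 6 at least 2-fold lower in PN and 1 higher (median -1.45, -1.75 length-centred). Over the whole list the median was -0.63, and with a pseudocount of 5 it was -0.72 over the kept genes. The astrocyte gene alrm was at 3.52 FPKM in PN against 67.9 in DN, and the glutamate transporter Eaat1 at 3.94 and 51.8. repo, which defines glia, had 0.347 FPKM in PN against 1.82 in DN, and its mean over the 3 adult groups was under the filter. Under 1 FPKM were 8 of the 16 in PN and 5 in DN. Of all 16854 genes, 8526 reached 1 FPKM in PN and 8331 in DN, so the PN count was near the share of all genes. Mdr65 of the blood-brain barrier was at 0 in PN. The higher member was Eaat2, at 347 against 81.6 FPKM, which lifted the summed list to 509 FPKM in PN against 477 in DN. The part of glial RNA in the neuron-wide difference was not tested.

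Gap junction genes were low in both groups, except for 1 in PN. The innexins ogre (2.49 against 9.33 FPKM), Inx2 (2.29 against 7.50) and Inx7 (2.12 against 5.31) were lower in PN, and Inx3 was at 1.03 against 2.54. shakB, the innexin of electrical synapses between neurons, was at 27.7 FPKM in PN against 3.27 in DN. Their median over 5 genes was -1.02 (-0.69 length-centred), but it turned to 0.59 with a filter at a mean of 5 FPKM. It was -0.40 with no filter and -0.53 with a pseudocount of 5.

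Muscle genes were near 0, with a summed level of 1.33 FPKM over 13 genes in PN and 7.41 in DN, and none was kept. Of 15 blood cell and fat body genes 5 were kept, and 10 were under 1 FPKM in PN against 9 in DN. Of 14 photoreceptor genes 12 were under 1 FPKM in PN and 9 in DN, and 3 were kept. Beside these counts, 8526 of all 16854 genes were at 1 FPKM or more in PN and 8331 in DN. Arr2 was lower in PN, at 0.246 against 9.73 FPKM. norpA was higher, at 131 against 16.0, and made up most of the summed list of 135 FPKM in PN and 34.3 in DN. Kenyon cell genes gave 5 higher and 5 lower of 12, and 3 and 6 length-centred. Of these, ey (0.143 FPKM in PN, 7.58 in DN, 275 in KC) and prt (0.291, 11.8 and 439) were low in PN, while mub, an RNA-binding protein, was at 273, 20.1 and 141. Mef2 and rut, with levels given above, were also higher in PN than in DN, and sNPF was lower. The summed Kenyon cell list stood at 750 FPKM in PN, 801 in DN and 5609 in KC.

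Housekeeping lists had medians within 2-fold of level. Cytosolic ribosomal protein genes had a median of -0.64 (-0.39 length-centred), with none of 86 higher by 2-fold and 6 lower (none length-centred), and a summed level of 21166 FPKM in PN against 32977 in DN. Proteasome genes had -0.62 and mitochondrial ribosomal genes -0.30. Oxidative phosphorylation genes had -0.19 (0.04 length-centred), vacuolar ATPase genes -0.01 and heat shock genes 0.12, with Hsp67Bc at 41.6 against 454 FPKM. In glycolysis Hex-A (231 against 87.7 FPKM) and Ald (3521 against 1422) were higher, and ImpL3 (now Ldh), which makes lactate, was lower at 0.752 against 2.77. Glutathione transferases gave 4 higher and 7 lower of 22, with GstE11 at 53.6 against 7.37 FPKM and GstE1 at 1.21 against 10.6.

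The remaining lists were mixed. Of 19 kept axonal microtubule genes 8 were higher in PN and none lower, and 3 higher and 2 lower length-centred, with medians of 0.63 and 0.47. Among them were futsch, a microtubule-binding protein of axons, at 65.8 against 15.1 FPKM and the kinesin unc-104 at 336 against 121. Clock genes gave 2 of 9 higher and 2 lower, with the light sensor cry at 0.490 against 12.6 FPKM and the kinase sgg at 258 against 45.9. In nitric oxide and cyclic GMP signalling 1 of 7 was higher and 3 lower, and 1 and 4 length-centred. The cyclase subunit Gycbeta100B stood at 205 against 64.7 FPKM and the synthase Nos at 8.37 against 22.3. Teneurins, neurexins and neuroligins had 2 of 7 higher, but none higher and 1 lower length-centred, and their median turned from 0.53 to -0.24. The higher genes were Ten-a at 51.5 against 21.1 FPKM and Nrx-1 at 272 against 124. Activity-regulated genes had 3 of 10 higher, with a median of 0.46 that turned to -0.08 when length-centred, and the early growth response factor sr at 31.6 against 9.80 FPKM and Hr38, within 2-fold, at 25.7 against 16.1. Cytochromes P450 gave 2 of 19 higher and 6 lower, with Cyp9c1 at 70.6 against 14.7 FPKM and Cyp28a5 at 1.69 against 12.7. Of 16 odour reception genes 2 were kept, Obp44a at 4.67 against 17.5 FPKM and Orco at 4.69 against 3.43.

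Several strongly different genes belonged to no list. The white gene w, an ABC transporter of eye pigment precursors that is also used as a marker on many fly transgenes, was at 169 FPKM in PN, 7.49 in DN and 195 in KC; whether the constructs here carry it is not given in the sources used here, and its part was not tested. retn, an ARID factor, was at 24.8 FPKM in PN against 1.23 in DN, cpo, an RNA-binding protein, at 157 and 10.7, and tnc, an extracellular matrix protein, at 20.6 and 0.454. The kinase Src64B stood at 153 FPKM in PN, 11.0 in DN and 1637 in KC. On the low side CG14687 was at 2.73 FPKM in PN against 225 in DN and CG15082 at 0.316 and 70.0.

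The same genes were then read at 45 h after puparium formation (45 h APF), where each group is 1 pooled library read for 75 bases. The stages also differ in sequencer and in read length, which cannot be told apart from age. Of the 377 genes higher in the adult, 18 were at least 4-fold higher in PN also at 45 h APF and 27 were at least 4-fold lower. Within 2-fold at that stage were 243 of them (64.46%). Of the 257 lower genes, 38 were lower and 15 higher, and 143 (55.64%) were within 2-fold. Among all 8515 genes 1.22% were 4-fold higher and 2.04% lower at that stage, and 87.36% were within 2-fold.

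The 9 coding genes higher at both stages were Oaz, C15, unpg, retn, Sulf1, w, CG31676, CG15202 and Mmp1. Oaz was at 66.0 FPKM in PN against 0.168 in DN at 45 h APF, and unpg at 43.9 and 1.35. For the lower genes the 23 coding members included the peptide genes NPF, SIFa, Mip, CCHa2, Crz, Hug, Pdf and AstCC and the monoamine genes Vmat and Tdc2. SIFa stood at 0.329 FPKM in PN against 59.7 in DN at 45 h APF. Capa went the other way between the stages, from 262 FPKM in pupal PN against 45.2 in pupal DN to 0 and 220 in the adult.

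Neuron-wide genes had a median of -0.67 at 45 h APF, with 5 of 14 at least 2-fold lower in PN and none higher, beside 8.03% and 4.6% of all genes at that stage. Release genes had -0.46 and glial genes 0.66, with 4 of the 10 glial genes higher and 2 lower. alrm was at 388 FPKM in pupal PN against 147 in pupal DN. Homeobox genes showed 10 higher and 19 lower of 46 at 45 h APF, the neuropeptides 1 and 17 of 31. Whether the stages differ in any of these lists was not tested.

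**Figure D5:**
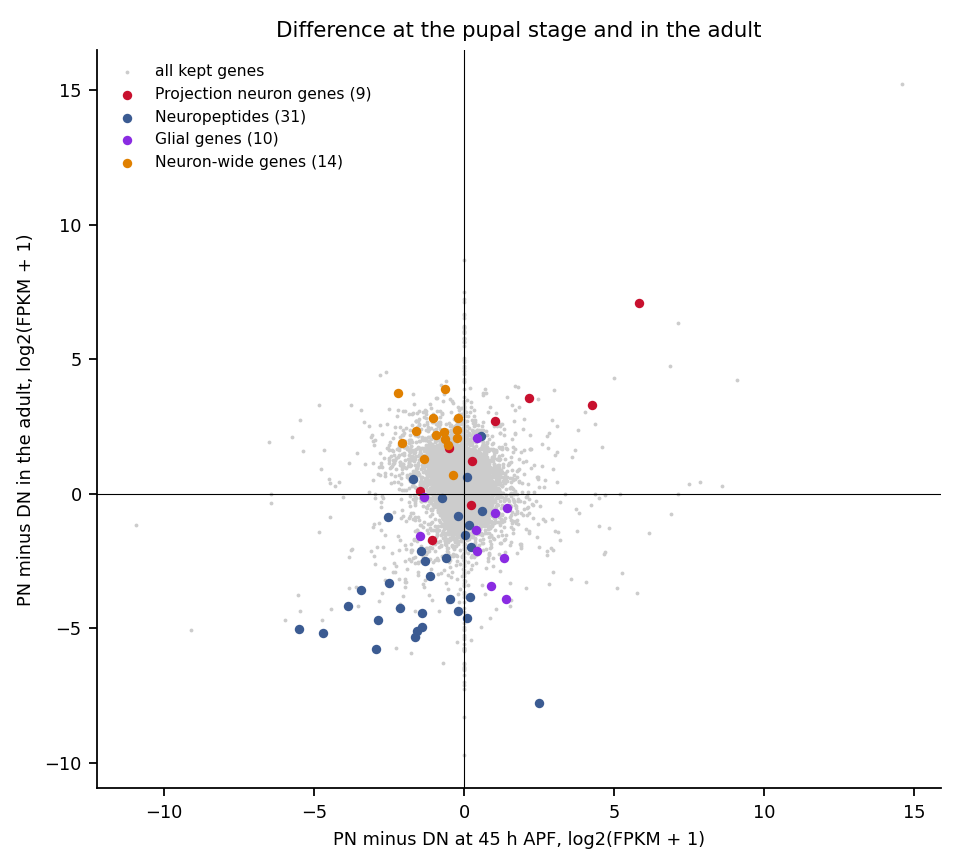
PN minus DN at 45 h APF (x axis) and in the adult (y axis), both as differences in log2(FPKM + 1), for 8515 genes, with 4 lists coloured and the number of genes in brackets. Oaz lies at the upper right (7.10 in the adult), most neuropeptides at the lower left, and neuron-wide genes above 0 in the adult with a median of -0.67 at 45 h APF.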

How the data were processed

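RNA of sorted cells was polyA selected and made into SmartSeq version 2 libraries from about 1 ng, per the labels' protocols. The authors deposited FPKM in 1 table, with the 2 adult libraries of each group averaged. Per the submitters' processing notes, TopHat, Cufflinks and the dm6 build were used, with no version given. Depth is unknown, and no counting interval can be given. Of 16859 lines, 5 whose names had become dates were left out. Names were matched to Ensembl release 115 (12632 by symbol, 3950 by synonym, each overlapping the table's locus), for coordinates and exon length. The table gives 4721 kept genes the locus of a neighbour, so the reads of overlapping genes may be split.

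Differences of log2(FPKM + 1) were computed with Python 3.11.15 and pandas 2.3.3, and the calculation was tested on simulated data. With 1 averaged value per group there was no statistical test. The 49 lists (1208 genes, 910 kept) and the members were chosen with earlier results of these data known. A gene of a list that passed the filter only through its high group had to differ, so counts over kept genes are descriptions. Named genes were the 20 largest differences in each direction among coding genes above 0 in both columns with at least 10 FPKM in 1, the 6 largest differences and 3 highest levels of each list, every member of lists of up to 12, and cell type markers. Adgf-D, AstCC, CCHa1, CG14946, CG4199, Zir, CG15202, CG31676, Crz, Dh44, Hdc, Hug, Irk2, Mdr65, Mmp1, Pdf, Pka-R1, Proc, SPR, Teh4, bdl, caup, dpr20, elav, ems, repo and unc80 fall outside that rule and were chosen after their values were seen. The 9 alternatives covered the pseudocount, filter, scaling, shared loci and exon length.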

Additional observations from a re-analysis of the deposited data

Results flagged for a closer look

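Genes named by the rule were singled out where the adult and the 45 h APF difference between PN and DN were both at least 4-fold and of opposite sign, and lists of 5 or more kept genes where both medians were at least 2-fold and of opposite sign. Of 355 genes 7 met the 4-fold rule, and 58 had opposite signs at 2-fold.

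In 6 of the 7, PN stood higher in the adult and lower at 45 h APF. nrv3, the sodium pump subunit, had differences of 3.75 and -2.19, from 34.6 FPKM in pupal PN against 162 in pupal DN. The cadherin Cals had 2.65 and -3.32, from 6.93 against 78.4 FPKM in the pupa. DopEcR had 2.60 and -2.58, from 4.59 against 32.4 FPKM, and the kinase sgg 2.47 and -2.15, from 7.74 against 37.7. AstA-R1 had 2.19 and -2.06, and CanA-14F 2.11 and -2.15. Capa went the opposite way, from 2.51 at 45 h APF to -7.79 in the adult, where it is listed at 0 in PN, so the adult value is no fold.

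The calcium and kinase signalling list had medians of 1.56 in the adult and -1.15 at 45 h APF over 17 genes. The innexins had -1.02 and 1.15 over 5 genes, and their adult median turned to 0.59 with a filter at a mean of 5 FPKM, so the opposite sign depends on genes of low level. These differences between stages were not tested, since each group has 1 value per stage and stage goes with sequencer and read length.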

How the results depend on the processing

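The direction of all 40 genes with the largest differences, and their 4-fold size, held under each of the 9 alternatives that could give them a value (23 of them when genes that share a locus were left out). These genes were picked for the size of the same difference. A filter, a pseudocount or leaving out shared loci cannot turn the sign of a gene, so the held direction is no independent check. The 377 higher and 257 lower genes became 540 and 362 with a pseudocount of 0.1, and 206 and 101 with a pseudocount of 5. They became 153 and 131 without genes that share a locus, where 3794 genes were left. With a filter at a mean of 5 FPKM the lower genes became 160. The higher share of 59.5% lay between 50.3% (columns scaled to the same sum) and 67.1% (pseudocount 5). Upper quartile scaling moved the median of all genes to -0.11 and equal sums to -0.19. The number of lists with a median of at least 2-fold was 12 and lay between 9 and 15. Of the list counts 145 moved by over 1.5 times and 731 did not, and of the list medians 18 crossed the 2-fold line and 419 did not, 9 of the 18 with length centring. The innexin median turned to 0.59 with the filter at 5 FPKM, where fewer genes were left. No paired analysis was possible because the adult columns average both replicates, so no replicate could be left out either. Depth behind the averaged values is unknown, which limits low genes most.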
